A study of Arabidopsis thaliana with 47 samples.

Results

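The transcripts described here stood lower after nitrogen was supplied and also lower after the transcription factor bZIP1 was let into the nucleus. Both falls were measured in root cells of Arabidopsis thaliana given a block of protein synthesis. The block came after the nitrogen step and before bZIP1 was let in. The transcripts were selected on measured values. In bZIP1 cells with cycloheximide (CHX), the dexamethasone (DEX) effect was the mean of the DEX groups minus the mean of the groups without DEX, taken over both nitrogen states, and the nitrogen (N) effect was formed in the same way. A probe set, the group of oligonucleotides that reports one transcript on the array, was a member if both effects were at most -0.3 and its mean level was at least 4, all on the log2 scale. Of 22746 probe sets other than controls, 184 met the rule. Of the 9428 that reached the level, 784 met the DEX threshold and 567 met the N threshold, each counted whatever the other effect. A single gene of the annotation was assigned to 107 members, which covered 106 loci because AT1G19025 was read by 2 probe sets. A further 6 members matched several genes and 71 had no gene in the table used. The named loci were spread over the genome, with 27 on chromosome 1, 20 on chromosome 2, 23 on chromosome 3, 19 on chromosome 4 and 17 on chromosome 5.

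The study asked which genes bZIP1 controls when a nitrogen signal arrives. Protoplasts were released from roots of Col-0 seedlings aged 10 days by a wall digestion of 4 h, transfected for 25 min and rested overnight. They received a plasmid for bZIP1 fused to a glucocorticoid receptor domain (GR), or the same plasmid without bZIP1 (the empty vector), and both plasmids carried a red fluorescent marker by which transfected cells were sorted. Every group shared the N step of 2 h, with either 20 mM KNO3 plus 20 mM NH4NO3 or 20 mM KCl in its place. CHX then followed or was left out, and DEX at 10 µM or its absence came last. The bZIP1 cells with CHX gave 6 arrays for each of the 4 combinations of N and DEX, in 2 preparations called Biorep 1 and Biorep 2 with 3 treatment replicates each. The bZIP1 cells without CHX gave 3 arrays per combination. Empty-vector cells were all given CHX, and gave 3 arrays per combination except 2 for KCl with DEX. The fusion was driven by the strong viral 35S promoter in cells without walls, so its amount and setting differed from those of an intact root. The CHX dose and the time in DEX were not given in the sources used here. Nothing states that treatment replicates came from separate cultures, so errors and p-values describe the spread between arrays, which may be technical.

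The factor bZIP1 belongs to the basic leucine zipper family and is known for its part in the response of plants to low sugar and low energy. Fused to GR it waits in the cytoplasm until DEX binds the receptor domain. CHX stops the translation of further regulators, so that the response to DEX is limited to transcripts that need no newly made protein. The N step of 2 h came before CHX, so this limit does not cover the response to N made before the block. Nitrate and ammonium are nutrients and also signals that alter the transcription of many root genes within hours.

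Levels are log2 array values. The lowest value differed among the bZIP1 cells with CHX (2.298), those without CHX (2.303) and the empty vector (2.287), so the 3 arms evidently came from separate summaries and levels in different arms are not on 1 scale. Markers of root cell types were nearly absent from the named probe sets. Those found were EXPA7 for root hairs, AT1G62500 for cortex and CR4 for root cap, and all 3 had means under 4 in bZIP1 cells with CHX. The root identity of the cells could therefore not be checked, nor was bZIP1 itself matched to a probe set.

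In the cells that chose them, DEX effects of members ran from -1.48 to -0.30 with a median of -0.54, and N effects from -1.11 to -0.30 with a median of -0.45. These values are a description, since they define the set, and in sorted bulk cells fewer cells of a type and less RNA per cell cannot be told apart. The DEX effect was the larger of the pair for 116 members and the N effect for 68. An effect of at least 1 in size was reached by 9 members for DEX and by 4 for N. Within Biorep 1 all 184 members were below 0 in both effects. Within Biorep 2, 182 were below 0 for DEX and 182 for N. In 150 members every array with both N and DEX lay below every array with neither, within both preparations, and in a further 33 this held in 1 preparation. The rule used these same arrays and favours such separation. The share of all probe sets with such separation was not counted.

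**Figure D1:**
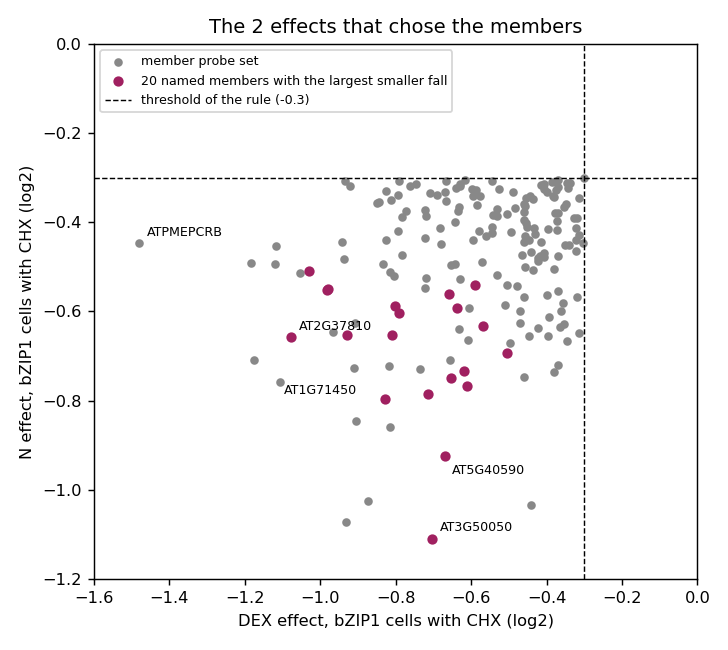
Each point is 1 of the 184 members, with its DEX effect on the horizontal axis and its N effect on the vertical axis (log2, bZIP1 cells with CHX), and dashed lines mark the thresholds of -0.3. Most points crowd near the corner of the thresholds, ATPMEPCRB lies farthest along the DEX axis at -1.48 and AT3G50050 farthest along the N axis at -1.11.

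Averaged over all members, the level in bZIP1 cells with CHX was 7.44 ± 0.27 (SD, n = 6) with KCl and no DEX, 6.85 ± 0.18 with KCl and DEX, 6.96 ± 0.22 with N and no DEX, and 6.36 ± 0.19 with both. The step for DEX was of like size with and without N. This additivity was open to a test, because the difference between the DEX effects is independent of their mean. By limma with Benjamini-Hochberg adjustment, 0 of 184 members had an interaction of N and DEX in bZIP1 cells with CHX, beside 0.0% of all probe sets, and the lowest adjusted p was 1.0. At an unadjusted p under 0.05 (limma), 3 members (1.63%) were lower and 5 (2.72%) higher. The shares were 1.38% and 1.06% of all probe sets, and 2.43% and 1.41% of the 9428 with a level of at least 4. The median interaction of members was -0.04, with quartiles of -0.16 and 0.15, against a median of -0.03 over the 9428 probe sets of that level. A missed threshold does not show that the effects add exactly.

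**Figure D2:**
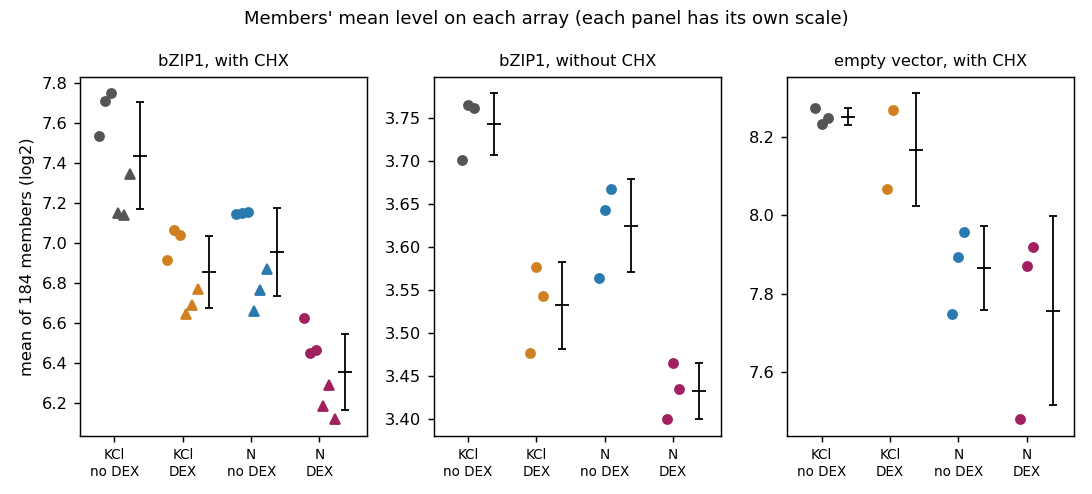
Each coloured point is 1 array and gives the mean log2 level of the 184 members, by N and DEX, in 3 panels with separate axes (triangles are Biorep 2, bars are the mean and SD of a group). With CHX and bZIP1 the arrays with both treatments run from 6.12 to 6.62 and those with neither from 7.14 to 7.75. Within each preparation the arrays with neither lie highest and those with both lowest, while Biorep 2 arrays with neither overlap Biorep 1 arrays with N alone, and in the empty vector the N arrays (7.48 to 7.96) lie below the KCl arrays (8.07 to 8.28) whatever the DEX.

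The preparations differed in the members' level. Biorep 2 stood below Biorep 1 for 118 members, which is 64.1% of them against 46.7% of the probe sets with a level of at least 4. The median difference was -0.32 for members and 0.03 for those probe sets. The rule applied to Biorep 1 alone chose 290 probe sets, 143 of them members, and applied to Biorep 2 alone chose 206, 126 of them members. Preparation was a covariate in the fit above. DEX effects are given apart by preparation below for AT5G43520, AT5G40590 and AT1G26380 alone, and not for other members whose preparations differed.

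The largest joint falls belonged to members of varied kinds. AT1G71450 encodes a transcription factor of the ERF/DREB family, proteins that bind DNA in stress and hormone responses. With KCl and no DEX its level in bZIP1 cells with CHX ran from 7.55 through a median of 8.43 to 9.44, and with N and DEX from 5.62 through 6.87 to 8.06. The lowest of these arrays were in Biorep 2, and the 2 groups overlapped when preparations were pooled. Its DEX effect was -0.83 and its N effect -0.80. In empty-vector cells its DEX effect was larger in size, though it did not pass the test, and is given below. AT1G44830, another factor of the ERF family, had a DEX effect of -1.12 and an N effect of -0.45. It was chosen for mention after its values were seen.

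AT3G50050, which encodes an aspartyl protease, had the largest N effect of all members at -1.11, with a DEX effect of -0.70. Its levels with KCl and no DEX ran from 5.21 through 5.55 to 6.72, and with N and DEX from 3.18 through 3.67 to 5.11, so these groups did not overlap. The N step alone took its group mean from 5.72 to 4.58. In empty-vector cells the DEX effect of AT3G50050 was larger in size than with bZIP1, though it did not pass the test, and is given below. AT3G50940 encodes an ATPase of the AAA type, enzymes that use ATP to remodel other proteins. Its levels with neither treatment (7.51 through 8.11 to 8.49) also stood clear of those with both (6.56 through 6.67 to 6.77). AT3G15520, from the cyclophilin-type isomerases that aid protein folding, had effects of -0.64 for DEX and -0.59 for N.

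AT2G37810, AT5G43520 and AT5G40590 encode proteins rich in cysteine and histidine with C1 domains, a family for which no list was tested. AT2G37810 had a DEX effect of -1.08 and an N effect of -0.66. Its levels ran from 5.07 through 6.03 to 6.94 with neither treatment and from the floor of the arm, 2.298, through 4.37 to 5.86 with both, so the pooled groups overlapped. AT5G43520 had effects of -0.62 and -0.73, but its DEX effect was -1.05 in Biorep 1 and -0.19 in Biorep 2. AT5G40590 had effects of -0.67 for DEX and -0.92 for N, and its DEX effect likewise was larger in Biorep 1, at -1.03, than in Biorep 2, at -0.31. Whether the preparations differed in these effects was not tested.

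ATPMEPCRB, a pectin methylesterase, which removes methyl groups from wall pectin, had the largest DEX effect at -1.48. Its levels without DEX ran from 4.77 through 6.04 to 6.99 with KCl and from 4.28 through 5.69 to 6.59 with N. With DEX they ran from 3.27 through 4.54 to 5.85 with KCl and from 2.298, the floor, through 4.47 to 5.32 with N. Pooled groups overlapped, but within each preparation and N state every DEX array of this gene lay below every array without DEX. AT1G26380 encodes an oxidoreductase of the berberine bridge enzyme type. Its level in Biorep 1 without treatment lay between 6.75 and 7.62 and in Biorep 2 between 3.95 and 4.06. Its DEX effects were -1.17 and -0.45 in Biorep 1 and Biorep 2.

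Class III peroxidases, secreted enzymes that use hydrogen peroxide to oxidise wall phenolics, were represented by AT1G14550 and Prx37. AT1G14550 had a DEX effect of -0.79 and an N effect of -0.60. Its level in bZIP1 cells with CHX ran from 11.66 through 12.21 to 12.79 with neither treatment and from 9.61 through 11.04 to 11.81 with both, and the overlap was between preparations. Probe sets named 55 of the 73 loci of the peroxidase list. Of these, 16 reached a level of 4 with CHX, 4 met the DEX threshold, 6 met the N threshold and the 2 above met both. The medians over the list were 0.05 for DEX and -0.20 for N at that level. Of 7 pectin methylesterases with a named probe set, 2 reached the level, both met the DEX threshold and ATPMEPCRB alone met the N threshold too.

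Other members of the first 20 were AT5G42830, an acyltransferase of the HXXXD family that joins acyl groups to alcohols or amines, with effects of -0.80 for DEX and -0.59 for N, and AT5G57500, of a galactosyltransferase family, with -0.93 and -0.65. AT4G31020, an alpha/beta hydrolase, had -0.57 and -0.63, and AT3G49710, a pentatricopeptide repeat protein of the kind that acts on organelle RNA, had -0.50 and -0.69. AT2G23270 and AT1G51915, for which no role is given here, had DEX effects of -0.98 and -1.03 and N effects of -0.55 and -0.51. The other named members of this first group were AT2G20150, AT3G21080, AT3G08750, AT1G55790 and AT1G74870. Their DEX effects lay between -0.98 and -0.59 and their N effects between -0.79 and -0.54.

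Some members were neighbours on the chromosome. AT1G51915 and AT1G51920 were adjacent, as were the receptor-like kinase genes AT1G53430 and AT1G53440, AT1G73510 and AT1G73530, and AT5G22530 and AT5G22540, while 1 annotated gene lay between AT2G20150 and AT2G20170. AT1G51920 had effects of -0.54 for DEX and -0.41 for N. AT1G53430 had effects of -0.58 and -0.34, and AT1G53440 of -0.85 and -0.36. These pairs were named for their position, after their values were seen, and whether related neighbours share array signal was not tested.

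The members nearest the thresholds were AT1G07650 (DEX effect -0.30, N effect -0.30), AT3G44630 (DEX effect -0.30), IAA30 (N effect -0.31), AT3G61390 (N effect -0.31) and AT2G20170 (level 4.005). Just outside stood AT1G73090 (DEX effect -0.29), AT1G15900 (DEX effect -0.29), AT2G47890 (N effect -0.30), CYP71B5, whose N effect was -0.30 to 2 decimals and missed the threshold, and SK15 (level 3.97). IAA30 is of the Aux/IAA family of auxin response repressors, CYP71B5 is a cytochrome P450 and AT3G61390 is a U-box protein.

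The members were mostly transcripts of cells given CHX. Without CHX, 124 of 184 had a mean under 4 in bZIP1 cells and 60 (32.6%) reached that level, while 89.3% of the 9428 probe sets chosen by level alone did. On all 12 arrays without CHX 19 members lay at the floor, 10.3% against 0.636% of those probe sets. The median level of members was 2.88 without CHX, 6.80 with CHX and 7.92 in the empty vector with CHX, where 182 members reached 4. The medians of the 9428 probe sets were 6.59, 6.58 and 6.68. AT1G14550, at 11.59 with CHX, had a mean of 2.63 without it, and AT2G23270, at 10.83 with CHX, had a mean of 2.55. Since the rule asked for a level with CHX, and arms with separate scales differ in preparation as well as in CHX, these causes cannot be told apart.

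**Figure D3:**
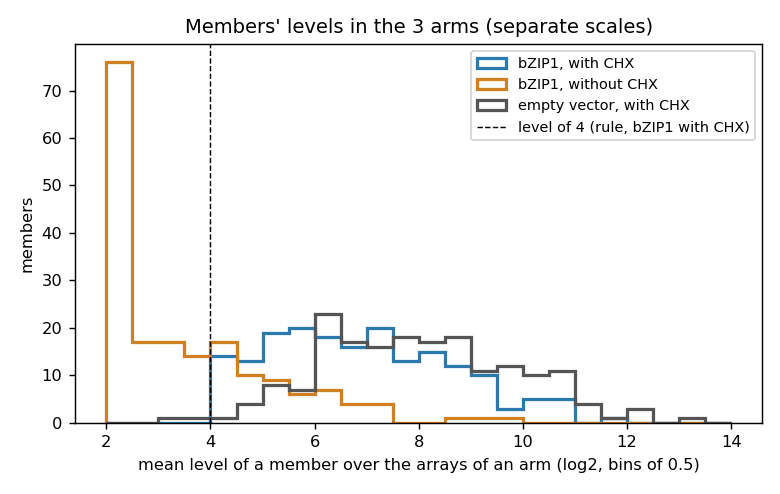
The outlines count members by their mean log2 level (horizontal axis, bins of 0.5) in each of the 3 arms, which are on separate scales. In bZIP1 cells without CHX the tallest bin sits at the floor near 2.3 and only 60 members lie at 4 or above, while in the empty vector with CHX 182 do.

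To ask whether bZIP1 acted on the same transcripts when proteins could be made, the DEX effect was tested in the 12 bZIP1 arrays without CHX, none of which the rule used. By limma with Benjamini-Hochberg adjustment over all 22746 probe sets, 17 members fell and 0 rose. Of all probe sets tested, 2.45% fell and 1.84% rose, and of the 9428 with a level of at least 4 with CHX, 4.68% and 3.99%. At an unadjusted p under 0.05, 47 members were lower, which is 25.5% against 7.59% of all probe sets and 13.4% of the 9428. The median effect over the 184 members was -0.02, with quartiles of -0.33 and 0.003, and 65.2% of them were below 0 against 47.3% of the 9428 probe sets. Of the 17 that fell, 14 were among the 60 members with a level of at least 4 without CHX. The median effect of those 60 was -0.38.

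AT5G40590, the C1 domain gene, fell most. Its levels without CHX were 6.51, 7.27 and 6.46 with KCl alone and 4.92, 5.32 and 5.04 once DEX was added. With N they were 5.67, 5.62 and 6.18 without DEX and 4.24, 4.50 and 4.28 with it. Every DEX array thus lay below every array without DEX. The effect was -1.57 ± 0.17 (SE, limma adjusted p = 0.00152), and the adjusted p was 0.0959 without replicate 1, 0.0251 without replicate 2 and 0.0903 without replicate 3. The N effect of this gene without CHX, at -0.84, did not pass (adjusted p = 0.197).

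AT5G42830, the acyltransferase gene, also fell with DEX. Without DEX it gave 5.13, 5.05 and 5.13 with KCl and 4.13, 4.40 and 5.29 with N, and with DEX it gave 3.58, 3.56 and 3.56 and then 2.66, 3.42 and 3.23. The DEX arrays again stood apart. Its effect was -1.52 ± 0.20 (limma adjusted p = 0.0044). The peroxidase gene Prx37 read 6.66, 6.94 and 6.90 with KCl and 5.59, 6.29 and 6.23 with N when DEX was absent, and 4.78, 5.38 and 5.37 and then 4.51, 5.19 and 4.63 when it was present. No DEX array reached the lowest array without DEX, and the effect was -1.46 ± 0.18 (limma adjusted p = 0.00307).

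The other named members that fell with DEX without CHX covered a range of sizes. AT2G39410, an alpha/beta hydrolase, fell by 1.24 ± 0.21, and AT2G15780 fell by 0.92 ± 0.11. AT1G72070, of the DnaJ chaperone type, fell by 0.79 ± 0.12, AT3G18250 by 0.76 ± 0.11 and AT3G48450, of the RIN4 family named for a regulator of immunity, by 0.69 ± 0.14. Smaller falls were those of AT2G27830 (0.35 ± 0.06) and AT4G39270, a leucine-rich repeat kinase (0.30 ± 0.06). BGLU27, a beta-glucosidase, fell by 0.95 ± 0.22 and was added after its values were seen, as the call with the largest adjusted p, 0.0488 by limma. The remaining 6 that fell had no single gene. Fits that left out 1 treatment replicate called 6 members lower without replicate 1, 6 without replicate 2 and 1 without replicate 3. Of these, 3, 3 and 1 were among the 17. Over all probe sets the same fits called 107, 162 and 90 lower. AT5G42830 passed in none of these fits (limma adjusted p of 0.0841 to 0.128) and Prx37 in the one without replicate 1 (limma adjusted p = 0.0398).

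In the peroxidase list, 8 of 55 genes fell and 4 rose with DEX without CHX, and the list's median effect was -0.002, beside 0.0 over all probe sets. Prx37 was the one member among the 8. AT1G14550 had an effect of -0.36 (limma adjusted p = 0.477), with 2.47, 3.21 and 3.77 with KCl alone and 2.47, 2.47 and 2.34 once DEX was added. None of the 7 pectin methylesterases passed in either direction, and ATPMEPCRB had a mean of 2.34 without CHX, close to the floor of 2.303.

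The N effect without CHX lowered 1 member and raised 0, beside 0.044% of all probe sets in each direction. The member was EXPA4, an expansin, a protein that loosens the wall during growth. Its levels without CHX were 9.75, 9.80 and 9.91 with KCl alone, and 9.85, 9.72 and 9.88 with KCl and DEX. With N they were 9.2, 9.43 and 9.41 without DEX and 9.43, 9.26 and 9.44 with it. All 6 N arrays lay below all 6 KCl arrays, and the effect was -0.46 ± 0.06 (limma adjusted p = 0.0389). DEX had an effect of 0.01 on EXPA4 in these cells, against -0.34 with CHX, and the difference was not tested. EXPA4 no longer passed when any 1 replicate was left out, with 0 members called in each such fit.

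At an unadjusted p under 0.05, 22 members were lower with N without CHX, beside 3.56% of all probe sets, and 0 were higher. The median N effect of all members was -0.03, and that of the 60 with a level of at least 4 there was -0.25. No member passed for both DEX and N without CHX. No member had an interaction of N and DEX there, beside 0.0% of all probe sets (limma, lowest adjusted p of 1.0). At an unadjusted p under 0.05 (limma) there were 2 members (1.09%) higher and 0 lower. The shares of all probe sets were 1.41% higher and 1.27% lower.

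Empty-vector cells with CHX show what DEX and N do without the fusion. For DEX, 5 members fell and 4 rose by limma, beside 0.431% and 0.615% of all probe sets. At an unadjusted p under 0.05 (limma), 35 members (19.0%) were lower and 25 (13.6%) higher. The shares were 3.85% and 3.59% of all probe sets, and 8.12% and 6.85% of the 9428. An effect of at most -0.3, the size the rule asked for, was found in 51 members (27.7%) and in 7.30% of the 9428. The median DEX effect of members was -0.10 with quartiles of -0.33 and 0.16, while the median over the 9428 probe sets was -0.01. Without replicate 1 the members' median was 0.02, so its sign rested on that replicate. The named member that fell was AT4G15150. Its levels were 10.82, 11.12 and 11.03 with KCl and 10.81, 10.82 and 10.69 with N when DEX was absent, and with DEX 10.32 and 10.27 and then 9.90, 9.60 and 9.70. All 5 DEX arrays lay below all 6 others, and the effect was -0.86 ± 0.07 (limma adjusted p = 0.00342), beside a DEX effect of -0.63 in bZIP1 cells with CHX. The call was lost without replicate 2 (limma adjusted p = 0.126) or replicate 3 (limma adjusted p = 0.122), at effects of -0.79 and -0.85.

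AT5G40590 rose with DEX in the empty vector. With KCl it went from 9.16, 8.95 and 8.75 to 9.82 and 9.36, and with N from 8.09, 8.23 and 7.98 to 8.83, 8.75 and 8.85. Within each N state the groups did not overlap, and the effect was 0.67 ± 0.11 (limma adjusted p = 0.0381). The rise did not pass in every fit. Its limma adjusted p was 0.0524 with the replicate block and 0.164 in the fit of all arrays, and 0.125, 0.411 and 0.067 without replicate 1, 2 and 3, at effects of 0.60 to 0.72. The gene passed in the opposite direction in bZIP1 cells without CHX, and the difference between these arms was not tested. The other 7 calls had no single gene, and their effects ran from -1.29 to -0.76 for the 4 that fell and from 0.46 to 1.22 for the 3 that rose. Several of the first 20 members had DEX effects in the empty vector as large as with bZIP1, or larger in size, that did not pass. The 2 given next were larger in size than the DEX effects of the same genes in bZIP1 cells with CHX. AT1G71450 had -1.39 ± 0.30 (limma adjusted p = 0.128) and AT3G50050 had -1.74 ± 0.32 (limma adjusted p = 0.0677). The members' median DEX effect was -0.08 without replicate 2 and -0.14 without replicate 3. The fit without replicate 2 called 0 members lower and 0 higher, beside 1 and 7 of all probe sets.

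Most members stood lower with N in the empty vector, though 1 passed the test. The N effect there was below 0 for 168 of 184 members, 91.3% against 39.9% of the 9428 probe sets. Its median was -0.35 with quartiles of -0.60 and -0.19, against 0.04 over those probe sets. By limma, 1 member fell and 0 rose after adjustment, beside 0.0615% and 0.101% of all probe sets. The member had no single gene and an effect of -0.93 ± 0.12 (adjusted p = 0.0452). At an unadjusted p under 0.05, 92 of the 184 members were lower, against 3.38% of all probe sets and 5.89% of the 9428, and 0 were higher. The 6 N arrays had member means of 7.48 to 7.96 and the 5 KCl arrays of 8.07 to 8.28, so they did not overlap. The lowest was treatment replicate 1 of N with DEX at 7.48, and the 2 others of its group were at 7.87 and 7.92. The mean over the 9428 probe sets stayed between 6.94 and 7.0 on these 11 arrays. The members' median N effect was -0.31 without replicate 1, -0.41 without replicate 2 and -0.39 without replicate 3. The fit without replicate 2 called 0 members lower, beside 2 of all probe sets.

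Single members had large N effects in the empty vector short of the threshold. AT5G40590 had -0.81 ± 0.11 (limma adjusted p = 0.0524), AT3G50050 had -0.94 ± 0.32 (limma adjusted p = 0.481) and AT1G71450 had -0.86 ± 0.30 (limma adjusted p = 0.502). AT3G50050 read 5.65, 6.66 and 5.88 with KCl alone and 4.80, 5.02 and 5.66 with N alone, so the groups overlapped by a narrow margin. The peroxidase transcript AT1G14550 read 13.63, 13.51 and 13.53 with KCl alone and 13.22, 13.31 and 13.38 with N alone, without overlap, and its effect over both DEX states was -0.25 ± 0.10 (limma adjusted p = 0.569). The N and DEX interaction in the empty vector passed in 0 members, beside 0.0352% of all probe sets. At an unadjusted p under 0.05 (limma), 3 members were lower and 3 higher, 1.63% each. The shares of all probe sets were 1.70% and 1.52%, near those of the members.

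The probe sets that met 1 threshold of the rule and not the other give a frame for these values. In the empty vector, the N effect had a median of -0.31 and was below 0 for 90.3% of the 383 that met the N threshold alone, close to the members' values, and a median of 0.01 with 47.8% below 0 for the 600 that met the DEX threshold alone. For the DEX effect without CHX, 13.5% of those 600 fell and 8.62% of the 383 fell, beside 9.24% of the members. No test was made of these differences. Without CHX, 60 members had a level of at least 4, and how many of the 600 and the 383 did was not counted.

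**Figure D4:**
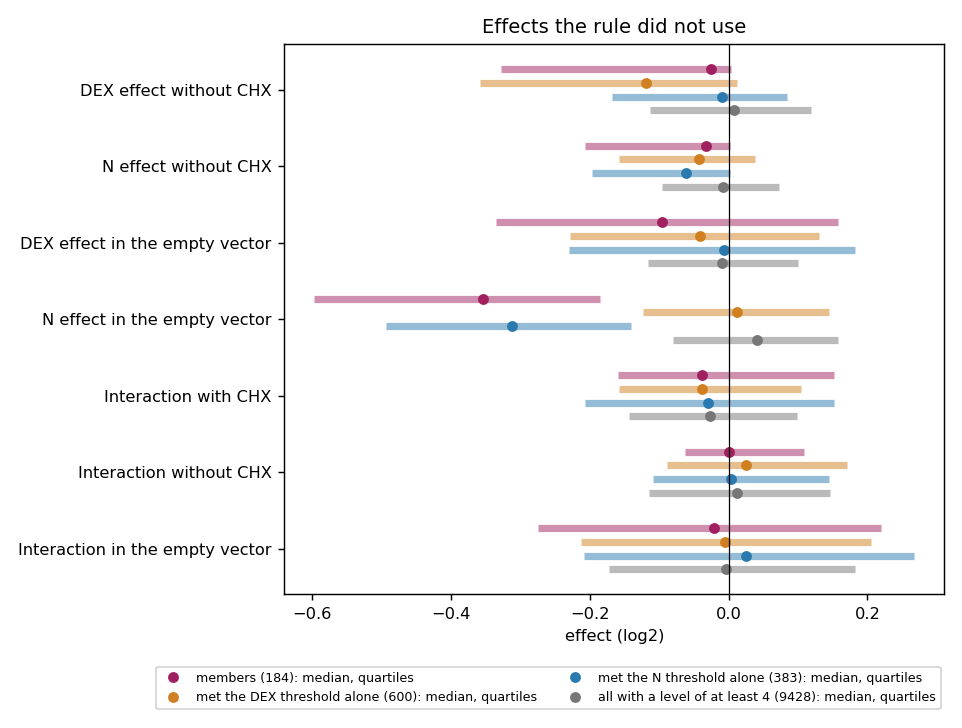
Points are medians and bars span the quartiles of log2 effects that the rule did not use, for the 184 members, the 600 and 383 probe sets that met 1 threshold alone, and all 9428 with a level of at least 4. For N in the empty vector the members (median -0.35) and the N-lowered probe sets (median -0.31) lie left of 0, while for the 3 interactions all sets centre near 0.

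**Figure D5:**
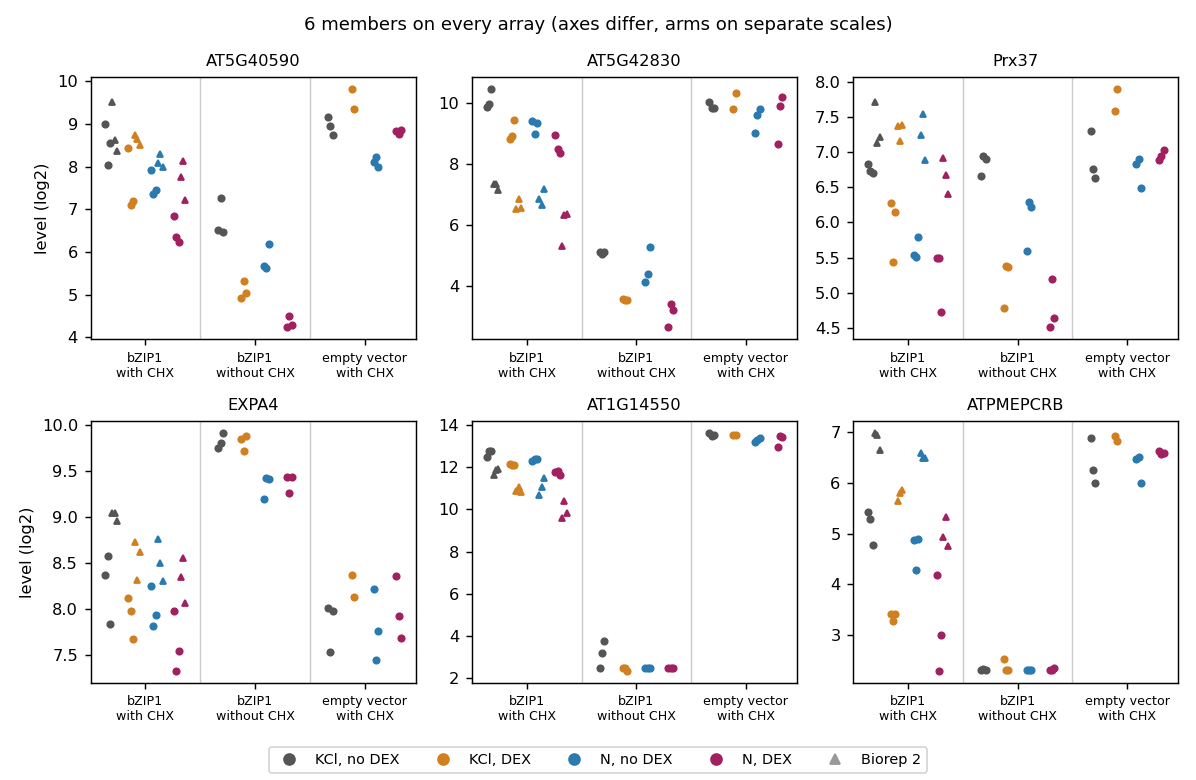
Each point is the log2 level on 1 array for 6 members, by arm from left to right and coloured by N and DEX, with triangles for Biorep 2 and a separate vertical axis per gene. AT5G40590, AT5G42830 and Prx37 step down with DEX without CHX, EXPA4 steps down with N there, and AT1G14550 and ATPMEPCRB have mean levels of 2.63 and 2.34 without CHX.

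Over the 7 tested contrasts, 27 members (14.7%) passed in at least 1 and 157 passed in none. The share was 5.29% over all probe sets, 10.8% over the 9428 with a level of at least 4 and 20.2% over the 600 that met the DEX threshold alone. Of the 383 that met the N threshold alone, 57 passed in at least 1. Other members outside the naming rule, picked by hand after their values were seen, were XTH26, a xyloglucan-modifying enzyme (DEX effect -0.35, N effect -0.63 with CHX), EXO, a protein of brassinosteroid-linked growth (-0.35 and -0.36), RING1, a RING-type ubiquitin ligase of plant defence (-0.37 and -0.40), and AT2G34930, a leucine-rich repeat protein of the disease resistance type (-0.94 and -0.31). None of these 4 passed in an unused contrast. Of 15 energy starvation genes listed, transcripts that rise when sugar is short, 5 had a named probe set and none of these 5 was a member. Their median DEX effect with CHX was 0.64, and without CHX 2 of the 5 rose with DEX. Of 22 nitrate response genes listed, 2 had a named probe set, neither was a member, and their median N effect with CHX was 0.38.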

How the data were processed

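The authors deposited 1 table of log2 expression values for 47 Affymetrix ATH1 arrays, and the submitters' processing notes name GCRMA without a version. The log2 scale was read from the values. Arrays hold no counts, so precision is limited by the number of arrays and by how far a level lies above the floor. Samples were grouped by the labels for vector, CHX, N and DEX into 12 groups, and 64 control probe sets were left out.

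The members and gene lists were chosen with earlier results of these data known. No test was made of the DEX and N effects that chose the members. The other contrasts were tested within each arm with limma 3.58.1 in R 4.3.3 (group means, lmFit, eBayes, two-sided). Benjamini-Hochberg adjustment ran over all 22746 probe sets with a threshold of 0.05, without a filter on low values. The fits were also run on simulated data with independent errors, which cannot show how they behave when arrays are correlated. Biorep was a covariate with CHX, as all 108 pairs of arrays of a Biorep correlated above 0.1 after group means were removed (median 0.541). Treatment replicate numbers were not used as pairs in the main fits. Same-numbered arrays correlated above 0.1 in 18 of 36 pairs with CHX, 14 of 18 without CHX (median 0.227) and 8 of 15 in the empty vector.

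Genes came from the platform annotation and TAIR10.1 locus names. Text names follow a rule: the 20 members with 1 gene and the largest value of the smaller fall, up to 10 members per tested contrast by adjusted p, list members, and 3 probe sets on either side of each threshold. Exceptions are stated. Lists covered class III peroxidases, pectin methylesterases, energy starvation and nitrate response. For lists of starch breakdown (3 loci with a named probe set), suberin (1), jasmonate (1), nitrogen starvation (1), phosphate starvation (0) and ethylene (0), no named probe set was a member, and unnamed probe sets could not be placed in lists. No sequence table was used here. Alternatives were replicate block, left-out replicates, a level filter, quantile normalization, another variance model, 1 fit of all arrays and other thresholds.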

Additional observations from a re-analysis of the deposited data

Results flagged for a closer look

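Within groups of 6 arrays of bZIP1 cells with CHX, 88 groups of named members were searched for an array that stood far from the others, and 4 were found, near the share of 1 in 20 that such a search gives by chance. AT2G20150 had an array at 4.557 with N and no DEX (Biorep 1, treatment replicate 1), below the others at 5.591 to 5.913. AT3G15520 had an array at 5.018 with N and DEX (Biorep 1, treatment replicate 1), above the others at 4.405 to 4.585. AT4G31020 had an array at 5.027 with KCl and DEX (Biorep 1, treatment replicate 2), above 4.023 to 4.168, and another at 4.849 with N and no DEX (Biorep 1, treatment replicate 3), above 4.01 to 4.05.

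For AT5G40590, every array with DEX lay above those without it in the empty vector and below them in bZIP1 cells without CHX, within each N state. The DEX effect of the empty vector minus that of bZIP1 cells without CHX was 2.24 on the log2 scale, and this difference was not tested. The rise in the empty vector did not pass with the replicate block, in the fit of all arrays or without any 1 replicate.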

How the results depend on the processing

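Membership held 184 probe sets as reported and 290 (143 shared) from Biorep 1 alone. For DEX without CHX, 27 members were lower under the level filter and 27 in the fit of all 47 arrays, beside 17. Over all probe sets these fits called 881 and 875 lower. Leaving out a replicate gave 1 to 6 members lower and 0 to 1 higher, beside 90 to 162 and 106 to 151 of all probe sets. For N without CHX, 2 were lower under the level filter, 2 in the fit of all arrays and 0 with the replicate block, beside 1. Over all probe sets these fits called 46, 105 and 6 lower. Leaving out a replicate gave 0 members lower, beside 2 to 4 of all probe sets. For DEX in the empty vector, 14 were lower and 10 higher under the level filter, 16 lower in the fit of all arrays, and 10 lower and 2 higher with the replicate block, beside 5 and 4. Leaving out a replicate there gave 0 to 11 lower and 0 to 5 higher. For N in the empty vector, 0 were lower with trend and robust variances and 30 under the level filter, beside 1. The fit of all arrays gave 40 and the replicate block 12. Over all probe sets these 4 fits called 12, 76, 168 and 37 lower. Leaving out replicate 2 gave 0 members lower and 0 higher. The empty-vector interaction gave 0 members in each direction without replicate 2. The level filter tests fewer probe sets and left-out replicates leave fewer arrays. In the empty vector, leaving out replicate 1 or 3 left 1 array of KCl with DEX, which is assumed to vary like the others. Counts of members called in those fits are therefore not given. Leaving out replicate 2 kept both arrays of that group. The cause of the other shifts was not tested. Of 104 values of single named calls under alternatives, 63 stayed past the threshold, 41 fell short of it and 0 turned direction. These shares differed by setting. All 10 named calls for DEX without CHX stayed under the level filter, quantile normalization, and trend and robust variances. Only 2 of the 10 stayed without replicate 1, 1 without replicate 2 and 1 without replicate 3. Of treatment replicate pairs, 18 of 36 with CHX, 14 of 18 without CHX and 8 of 15 in the empty vector correlated above 0.1. The replicate block therefore rests on numbers alone. For DEX without CHX it gave 22 members lower, beside 670 of all probe sets. Without CHX, 124 members had a mean under 4 and 19 lay at the floor on every array, which limits what can be seen there.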

Other observations

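After group means and preparation were removed, members varied together from array to array within an arm to different degrees. The median correlation between pairs of members was 0.071 in bZIP1 cells with CHX, 0.117 over the 60 members with a level of at least 4 without CHX, and 0.269 over the 182 with that level in the empty vector, where other probe sets gave 0.016, 0.007 and 0.006. The pairs share arrays and normalization, so these values are a description. On the array of the empty vector with N and DEX that was treatment replicate 1, the mean of the members was 7.48 beside 7.87 and 7.92 on the other arrays of its group.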
